A study of Mus musculus with 10 samples.

Results

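H3K27me3 regions of mouse bone marrow-derived macrophages were cut into 1 kb bins, and the bins described here carried the mark in unstimulated cells and in IL-4-stimulated cells without the stress kinase PERK, and in no other stimulated library. The call asked for 500 bp or more of the bin under the merged regions of a library. Members were the bins of chromosomes 1 to 19 called in both M0 libraries and both KO M2 libraries, and in none of the 2 WT M2 and 4 M1 libraries. There were 1824 such bins among 372982 bins called in at least 1 of the 10 libraries. The calls of all 10 libraries chose the members, so their presence and absence are a description and were not tested.

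The study asked how loss of PERK, encoded by Eif2ak3, bears on H3K27me3 in polarised macrophages. KO cells came from C57BL/6 mice carrying Eif2ak3 fl/fl and LysMcre, in which Cre recombinase is driven by the lysozyme M gene and acts in myeloid cells, and WT cells carried Eif2ak3 fl/fl without Cre. Marrow was cultured for 7 days in every group with M-CSF, the macrophage growth factor, at 20 ng/ml. M2 cells then received 20 ng/ml IL-4 for 24 h (2 KO and 2 WT libraries), M1 cells received 20 ng/ml LPS with 50 ng/ml IFN-gamma for 24 h (2 KO and 2 WT libraries), and M0 cells were left unstimulated (1 KO and 1 WT library). The M1 and M2 replicates are biological per the series design, and each M0 genotype is a single library. Called regions do not measure transcripts or protein, so the deletion of Eif2ak3 was not checked here.

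H3K27me3 is a methylated lysine in the tail of histone H3. Polycomb repressive complex PRC2 writes it through Ezh1 or Ezh2, chromobox subunits of the PRC1 complex bind it, and the demethylases Kdm6a and Kdm6b remove it. It covers silent developmental and lineage-foreign genes in most cell types, and in macrophages its removal by Kdm6b at IL-4 target genes is a known step of alternative activation. PERK is an endoplasmic reticulum kinase whose phosphorylation of the initiation factor eIF2alpha raises translation of Atf4, a transcription factor of stress and amino acid synthesis genes.

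Promoter windows are shown for the members whose gene starts or gene bodies the results turn on, because Polycomb binding in mammals is known to favour stretches rich in CpG. Each window runs from 250 bases before to 50 bases after the annotated gene start and was taken from RefSeq on GRCm38.p6, 5′ to 3′ on the gene's own strand. Capitals mark CG, the only motif searched, which reads the same on both strands. The starts of Ddit4, Nol4l, Elane and Lef1 lay in member bins, and the start of Ch25h lay 148 bases outside the member bin that covers most of its body. Nol4l was chosen after its values were seen.
Ddit4: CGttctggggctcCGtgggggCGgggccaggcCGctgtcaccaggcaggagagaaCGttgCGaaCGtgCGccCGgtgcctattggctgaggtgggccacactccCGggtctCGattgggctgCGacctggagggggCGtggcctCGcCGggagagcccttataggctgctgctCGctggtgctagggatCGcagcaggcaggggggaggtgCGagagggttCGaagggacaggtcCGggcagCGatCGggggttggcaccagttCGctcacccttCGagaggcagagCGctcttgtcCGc
Ch25h: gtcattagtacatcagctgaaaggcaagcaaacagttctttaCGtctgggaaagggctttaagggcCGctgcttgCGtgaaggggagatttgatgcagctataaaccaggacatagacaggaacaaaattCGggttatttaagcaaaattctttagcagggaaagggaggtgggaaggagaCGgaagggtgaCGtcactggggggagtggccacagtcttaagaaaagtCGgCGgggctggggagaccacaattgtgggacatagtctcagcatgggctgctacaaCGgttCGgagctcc
Nol4l: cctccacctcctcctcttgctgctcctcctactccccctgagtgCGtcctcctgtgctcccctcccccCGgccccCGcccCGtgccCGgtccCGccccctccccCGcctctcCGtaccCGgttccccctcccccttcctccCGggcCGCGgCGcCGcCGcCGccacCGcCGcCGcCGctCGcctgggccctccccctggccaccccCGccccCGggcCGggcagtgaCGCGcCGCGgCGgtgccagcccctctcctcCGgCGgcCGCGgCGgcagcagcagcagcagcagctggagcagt
Elane: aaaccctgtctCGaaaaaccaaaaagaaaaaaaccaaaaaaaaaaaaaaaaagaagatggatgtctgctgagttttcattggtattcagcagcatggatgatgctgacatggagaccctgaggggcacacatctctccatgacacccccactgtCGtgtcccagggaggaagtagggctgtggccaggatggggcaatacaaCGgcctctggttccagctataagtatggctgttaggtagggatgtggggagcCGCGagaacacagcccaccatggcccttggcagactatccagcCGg
Lef1: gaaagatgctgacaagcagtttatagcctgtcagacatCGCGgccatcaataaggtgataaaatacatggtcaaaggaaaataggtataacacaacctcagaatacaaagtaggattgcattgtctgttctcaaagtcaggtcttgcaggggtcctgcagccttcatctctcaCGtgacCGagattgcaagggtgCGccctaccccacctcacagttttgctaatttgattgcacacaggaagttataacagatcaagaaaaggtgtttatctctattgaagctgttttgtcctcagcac
The windows lie at chr10:59951721-59952020 on the minus strand for Ddit4, chr19:34475099-34475398 on the minus strand for Ch25h, chr2:153444430-153444729 on the minus strand for Nol4l, chr10:79886062-79886361 on the plus strand for Elane and chr3:131156044-131156343 on the plus strand for Lef1. Ddit4 holds 26 CG dinucleotides in its 300 bases and Nol4l holds 34. Ch25h holds 10, Elane 6 and Lef1 5. All 61 windows whose gene start lay in a member bin (54 genes) held at least 1 CG, as did 95.6% of 20085 windows of the same length across the genome.

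Libraries differed in ways that ran parallel to the rule. The share of tags inside called regions was 61.0% and 61.3% in KO M2, 41.3% and 56.5% in WT M2, 45.0% to 48.5% in M1 and 64.1% and 62.6% in KO and WT M0. The 4 libraries in which members had to be called were thus the 4 with the highest share, and the part of this difference in the member count was not tested. Depth was between 12.6 and 20.9 megatags, and the fragment length was 178 to 190 bp in the stimulated libraries, against 372 bp in KO M0 and 352 bp in WT M0. WT M2 replicate 1 stood furthest apart, with 71.1% of the bins called in both M0 libraries also called in it, against 90.3% in WT M2 replicate 2, 94.4% and 94.6% in KO M2 and 80.8% to 87.3% in M1. It and WT M1 replicate 1 also had 52942 and 31310 called bins on the X chromosome, against 686 to 1000 in the other 8 libraries. The labels used here give no sex of the animals, and whether these 2 WT libraries came from animals unlike those of the other 8 was not tested. Without WT M2 replicate 1 the rule found 1884 bins, and without both of these WT libraries it found 2346. In bulk chromatin, a mark on fewer cells and a weaker mark on each cell cannot be told apart.

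The tissue label was set against gene lists. A bin called in both M0 libraries lay in or within 5 kb of 8747 of 20665 coding genes. Among the lists, it did so for 7 of 24 macrophage identity genes and 2 of 18 housekeeping genes. The counts were 20 of 24 for lymphoid markers, 39 of 39 for Hox genes and 59 of 59 for developmental transcription factors. The housekeeping and macrophage shares were the lowest of the 13 lists. Stress response and serine synthesis genes (13 of 39) and sterol and oxysterol genes (8 of 24) were close to the macrophage share, so a low share was not particular to macrophage genes.

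Bins that a single stimulated group had in common with M0 were found most often in KO M2. Of 138536 bins called in both M0 libraries, 1824 (1.32%) were called in both KO M2 libraries and in none of the other 6 stimulated libraries. The same rule found 4 bins (0.00289%) with WT M2 in place of KO M2, 33 (0.0238%) with KO M1 and 9 (0.0065%) with WT M1. These small counts depended on single libraries: the WT M2 count was 217 without WT M2 replicate 1, the KO M1 count was 241 without KO M1 replicate 1, and the WT M1 count was 113 without WT M1 replicate 2. With the upper 50% of regions by score the count was 479 for KO M2, against 44 with WT M2, 69 with KO M1 and 82 with WT M1.

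The counts also differed when bins of 1 stimulated group were taken first and M0 was read afterwards. There were 4535 bins called in both KO M2 libraries and no other stimulated library, and 1824 of them (40.2%) were called in both M0 libraries. Bins found in WT M2 alone numbered 826, of which 4 (0.484%) were in both M0 libraries. For KO M1 the count was 33 of 1783 (1.85%) and for WT M1 it was 9 of 1046 (0.86%). A further 1259 bins of KO M2 were called in 1 M0 library and 1452 in neither.

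**Figure D1:**
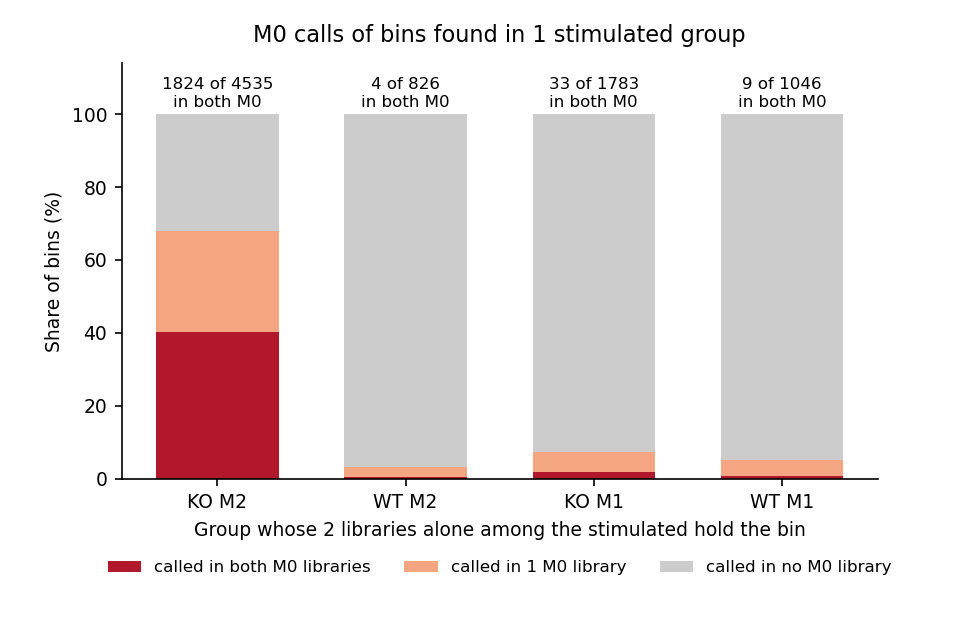
Bins called in both libraries of 1 stimulated group and in no other stimulated library, divided by the number of M0 libraries that also called them (y axis, % of bins; x axis, the group). The dark part, called in both M0 libraries, is 40.2% for KO M2 and 1.85% or less for WT M2, KO M1 and WT M1.

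The bar plot of M0 calls gives the difference between KO M2 and the other stimulated groups as a share of the bins each group holds alone. The KO M1 share of 1.85% was far below that of KO M2 and above those of WT M2 (0.484%) and WT M1 (0.86%). The part of genotype and of library differences in these shares was not tested. Both M0 genotypes entered the rule, and KO M0 and WT M0 each called all members by construction.

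Members were the end of a graded pattern across the M2 libraries. Of 9535 bins called in both M0 libraries and in no M1 library, KO M2 replicates 1 and 2 called 50.9% and 57.3%, and WT M2 replicates 1 and 2 called 3.54% and 27.9%. Both KO M2 libraries and 1 WT M2 library called a further 1651 bins, and the WT library was replicate 2 in 1591 of these. Exactly 1 KO M2 library and no WT M2 library called 2281 bins, and no M2 library called 2656. Both WT M2 libraries and neither KO M2 library called 4. Absence from WT M2 therefore turned on replicate 2: dropping it gave 3415 bins, and dropping KO M2 replicate 1 gave 3238.

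Dropping the condition on M1 left 5289 bins called in both M0 and both KO M2 libraries and in neither WT M2 library. Of these, 1452 were called in 1 M1 library, 1015 in 2, 668 in 3 and 330 in all 4. The reverse, called in both M0 and both WT M2 libraries and in neither KO M2 library, held for 64 bins.

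Each library was also read over bins chosen without it, with 1 library a side and so no test. Its own calls still enter the rule for members, so these shares are no independent measure. Bins were chosen among the 9535 with replicate 1 of each genotype (called in KO M2, not in WT M2), which gave 4566. KO M2 replicate 2 called 74.8% of them (95% Wilson interval 73.5 to 76.0) and WT M2 replicate 2 called 41.1% (39.6 to 42.5). Over all 9535 bins the same libraries called 57.3% and 27.9%, so the gap between genotypes was 33.7 percentage points in the chosen bins and 29.4 in all.

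With replicate 2 as the choice there were 3316 bins. KO M2 replicate 1 called 56.8% (55.1 to 58.5) and WT M2 replicate 1 called 2.35% (1.89 to 2.93), a gap of 54.5 points beside 47.4 over all 9535 bins. Bins chosen the other way round gave gaps of similar size: 48 bins called in WT M2 replicate 1 and not in KO M2 replicate 1 were called at 66.7% in KO M2 replicate 2 and 37.5% in WT M2 replicate 2. For the 515 bins called in WT M2 replicate 2 and not in KO M2 replicate 2, 57.9% were called in KO M2 replicate 1, and 18 bins were called in WT M2 replicate 1. The held-out gap was thus 33.7 and 54.5 points for bins chosen in KO M2, and 29.2 and 54.4 points for bins chosen in WT M2. These intervals cover counting error over bins only, and neighbouring bins share regions.

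When each library was trimmed to its best-scoring regions up to an equal covered length of 156.0 Mb, equal scores taken densest first, the count was 1683, against 63 with WT M2, 112 with KO M1 and 84 with WT M1 in place of KO M2. The asymmetry held at equal length, but the bins were mostly others: 670 were shared, which is 36.7% of the 1824 and 39.8% of the 1683. At that length, of 125302 bins called in both M0 libraries, KO M2 called 63.2% and 72.4%, WT M2 63.9% and 60.6%, and M1 58.6% to 63.5%.

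The members were small and scattered. They formed 1501 runs of adjacent bins, of which 1237 (82.4%) were 1 bin long, 217 were 2 kb, 37 were 3 kb, 8 were 4 kb and 2 were 5 kb. The bins called in both M0 libraries formed runs with a median of 2 kb and a longest run of 293 kb, and 39.7% of those runs were 1 bin long. Short runs were not particular to members: runs of 1 bin made up 73.3% for the bins called in both M0 libraries and no M1 library and 85.1% for those called in both M0 libraries and no stimulated library, each with a median of 1 kb. Linking members up to 10 kb apart gave 1345 clusters, of which 14 held 5 or more bins. The largest had 9 bins over 24 kb in Ccdc85c, and the next had 8 bins over 19 kb in Flrt1 and Macrod1.

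Every autosome held members. Chromosome 4 had the most, 210, and chromosome 3 the fewest, 31. As a share of the bins called in both M0 libraries they made up 2.31% on chromosome 12 and 0.880% on chromosome 3. On the X chromosome, which the rule leaves out, 1 of 581 bins called in both M0 libraries met the same condition.

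Some members sat close to the 500 bp limit. The least covered of the 4 required libraries had 500 to 599 bp in 325 members, and 386 bins just outside missed the rule only because that library had 400 to 499 bp. The most covered of the 6 excluded libraries had 400 to 499 bp in 253 members, and 338 bins just outside had 500 to 599 bp there. At the other end, 972 members (53.3%) had 0 bp in all 6 excluded libraries, 660 were covered over all 1000 bp in the 4 required libraries, and 327 were both.

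The regions that held members were short and shallow for this mark. The median length of the region around a member was 5.79 and 5.38 kb in KO M2 replicates 1 and 2, 5.28 kb in KO M0 and 4.16 kb in WT M0. Around all bins called in both M0 libraries the medians were 32.4 and 26.4 kb in KO M2, 14.7 kb in KO M0 and 12.8 kb in WT M0. Tag density, as the authors' normalized tag count per kb of region at 10 megatags, had a median of 15.6 and 17.0 in KO M2, 19.4 in KO M0 and 19.8 in WT M0. The same medians for all bins called in both M0 libraries were 27.1 and 28.8 in KO M2, 29.7 in KO M0 and 29.3 in WT M0. Bins called in both M0 libraries and no M1 library were close to members in both respects. Their median region length was 6.80 and 5.99 kb in KO M2, 4.39 kb in KO M0 and 3.39 kb in WT M0, and their median density was 15.9 and 17.4 in KO M2, 18.7 in KO M0 and 19.3 in WT M0.

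Relative to each library's calling threshold per 1 kb window, the member medians were 1.14 and 1.15 times the threshold in KO M2, 1.34 times in KO M0 and 1.25 times in WT M0. Members therefore stood closer to the threshold in KO M2 than in M0, and in every one of the 4 libraries closer than all bins called in both M0 libraries did. For bins called in both M0 libraries and no M1 library the medians were 1.17 times the threshold in each KO M2 library. In KO M0 they were 1.29 times and in WT M0 1.22 times, so nearness to the threshold was not particular to members.

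**Figure D2:**
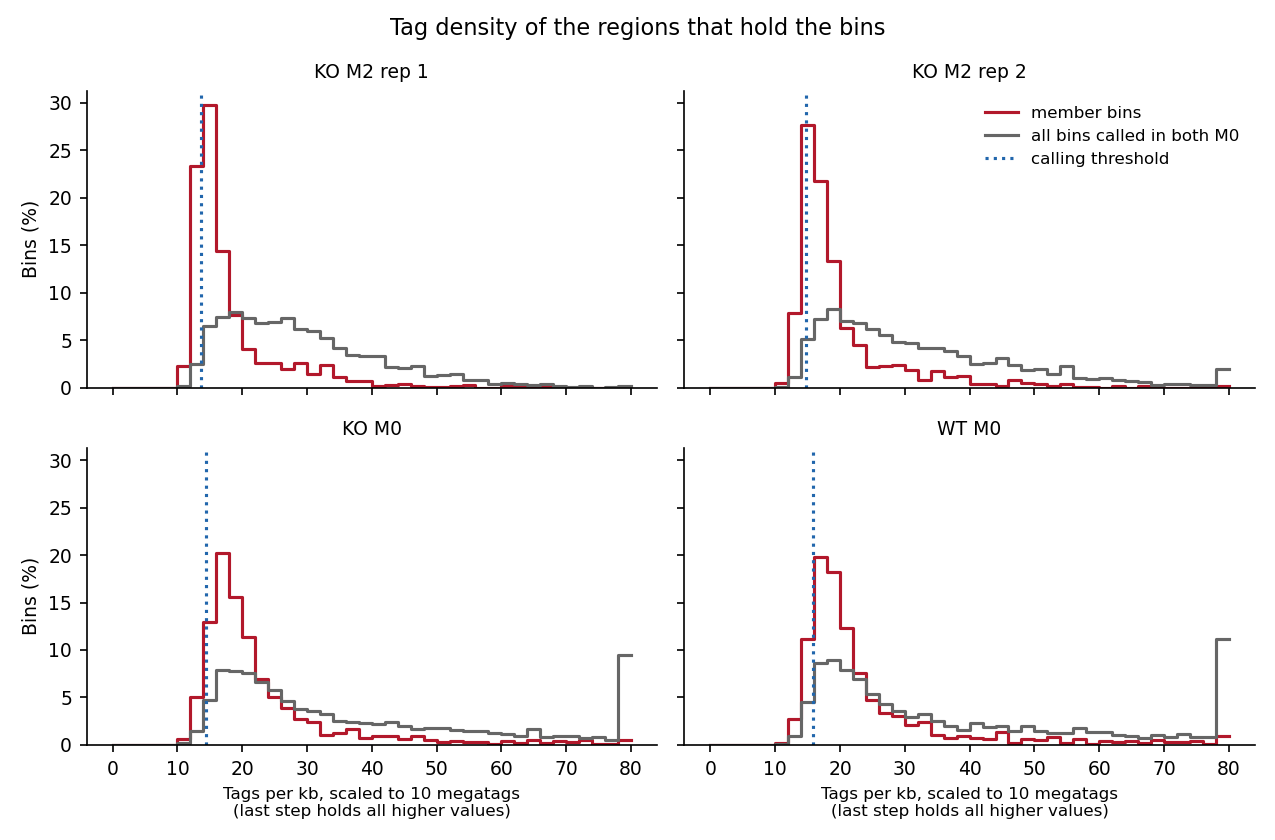
Distribution of tag density (x axis, normalized tags per kb of the holding region at 10 megatags; y axis, % of bins) for member bins and for all bins called in both M0 libraries, in the 4 libraries that call the members. The dotted line is the library's calling threshold; member medians of 15.6 to 19.8 lie just right of it, against 27.1 to 29.7 for the other curve.

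In the plot of tag density, merged regions can average slightly below the threshold, since it applies to windows and not to whole regions.

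The libraries without a call often had a region nearby. The median distance from a member to the nearest region was 5.09 kb in WT M2 replicate 1 and 0.714 kb in WT M2 replicate 2. In KO M1 it was 2.67 and 1.51 kb, and in WT M1 2.19 and 2.44 kb. A region lay within 2.5 kb, the gap that the authors' region calling bridges, for 31.2% of members in WT M2 replicate 1 and 74.1% in replicate 2, against 48.2% to 62.0% in the M1 libraries. WT M2 replicate 2 reached part way into the bin (1 to 499 bp) in 25.4% of members, and replicate 1 in 3.07%.

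At 1 kb from a member the share of bins called was 63.7% to 65.1% in KO M2, 3.73% to 22.3% in WT M2 and 9.48% to 15.7% in M1, and 62.8% to 69.2% in M0. Neighbours that were members themselves are included, and the rule fixes their calls, so part of the gap near members is built in. At 20 kb it was 38.7% to 39.9% in KO M2, 20.2% to 35.7% in WT M2 and 26.5% to 32.0% in M1, and 31.4% to 36.5% in M0. The mark in WT M2 replicate 2 was back at 38.4% to 39.3% of bins by 5 kb, and in replicate 1 it was at 16.5% to 17.2%. The members were thus short stretches beside chromatin that several of the excluded libraries also marked.

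**Figure D3:**
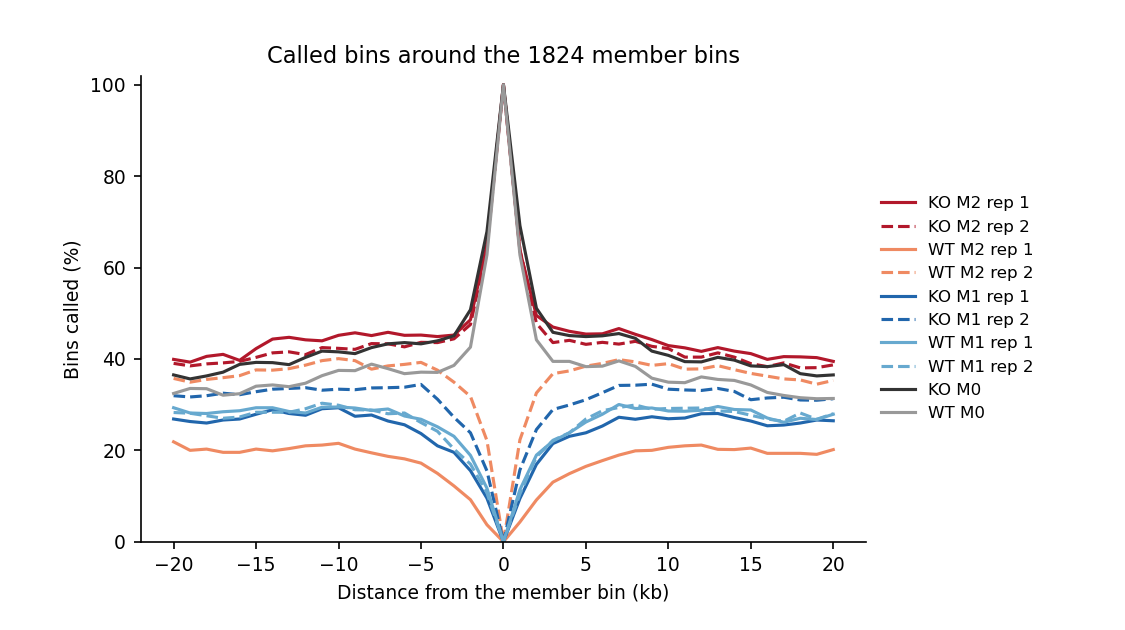
Share of bins called (y axis, %) at 1 kb steps up to 20 kb on either side of the 1824 member bins (x axis, kb), 1 line per library. The value at 0 is fixed by the rule at 100% or 0%, and neighbours that are members themselves enter with their fixed calls. At 5 kb, KO M2 stands at 43.2% to 45.4%, M0 at 37.1% to 44.9% and WT M2 replicate 1 at 16.5% to 17.2%.

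Some members lay in short regions in all 4 libraries, and few of these were dense. In 559 members (30.6%) the holding region was at most 5 kb in all 4 libraries, and 16 of these had over 30 tags per kb in both M0 libraries. The same shares were not computed for other bins, so these counts show no trait particular to members. These loci were picked after their values were seen. The member in Ch25h had 17.5 and 25.2 tags per kb in KO M2, 42.4 in KO M0 and 42.8 in WT M0. The member upstream of Atf3 had 18.7 and 24.3 in KO M2, 32.7 in KO M0 and 44.2 in WT M0. The member at the inner start of Nol4l had 17.0 and 24.8 in KO M2, 46.2 in KO M0 and 52.2 in WT M0. Every excluded library called a region that touched the Nol4l bin or lay within 0.277 kb of it. At all 3 the density in each KO M2 library was below that in each M0 library. The 3 were drawn from members with high density in both M0 libraries, so this order was in part set by the choice.

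Members lay in protein-coding gene bodies in 60.9% of cases, against 51.4% of bins called in both M0 libraries and 41.5% of bins called in any library. Bins called in both M0 libraries and in no stimulated library were alike in this, at 60.2%. An annotated coding gene start lay in 54 of the 1772 members on chromosomes with promoter entries (3.05%), against 3.45% of the M0 bins and 6.61% of the bins found in M0 alone. Promoter windows of members had a median of 9 CG dinucleotides, against 15 in the M0 bins, 17 in bins called in all 10 libraries, 22 in the bins found in M0 alone and 14 in all windows.

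Of 20665 protein-coding genes, 937 (4.53%) had a member in the body or within 5 kb of it. Their median length was 34.9 kb, beside 17.5 kb over all coding genes, and longer genes offer more bins. A single member was the case for 607, and 30 genes had 5 or more. Intron and exon positions were not analysed here.

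The 12 genes with the most members were long and, apart from Megf6 and Prdm16, had over 50% of the body covered in both M0 libraries. Megf6 was covered over 48.0% in KO M0 and 34.2% in WT M0, and Prdm16 over 49.0% and 44.0%. Ccdc85c (chr12:108203599-108277852) had 14, and its body was under called regions over 69.9% and 74.0% in KO M2, 24.0% and 35.5% in WT M2, 26.4% and 29.3% in KO M1, 31.2% and 22.5% in WT M1, 91.2% in KO M0 and 88.1% in WT M0. Macrod1, an ADP-ribosylhydrolase gene, had 12, and Flrt1, a membrane protein gene that lies inside it, had 8 of the same stretch. Camk2b, a calmodulin-dependent kinase subunit, Megf6, and Celsr1, a cadherin of planar cell polarity, had 9 each.

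Celsr1 shows how WT M2 replicate 2 can part from replicate 1. Its body was covered over 70.9% and 62.0% in KO M2, 7.98% in WT M2 replicate 1 and 52.9% in replicate 2, 9.90% to 17.3% in M1, 61.2% in KO M0 and 50.4% in WT M0. The receptor tyrosine phosphatase genes Ptprf and Ptpru had 8 and 7 members, Scube1 and Prdm16, a transcription factor of brown fat, had 8 each, and the ciliary gene Anks6 and the laminin chain gene Lama5 had 6 each. Anks6 was covered over 60.2% and 68.8% in KO M2, 11.1% and 16.3% in WT M2, 6.46% to 30.3% in M1, 62.5% in KO M0 and 60.8% in WT M0, and here both WT M2 libraries lay below both KO M2 libraries by a wide margin.

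Read gene by gene, the same pattern occurred in 54 genes. Of 2806 genes with at least 50% of the body covered in both M0 libraries, 54 (1.92%) were also covered by at least 50% in both KO M2 libraries and in none of the other 6 stimulated libraries. With WT M2, KO M1 or WT M1 in place of KO M2 there were 0 such genes (0%). The gene body pattern uses the same calls and is a description. Many of the 54 lay near the 50% limit: an excluded library covered 40% or more in 31, a required library covered under 60% in 34, and 14 had neither. Plin5, a lipid droplet protein gene, had 50.1% and 50.6% in KO M2, against 49.3% in WT M2 replicate 2. A member lay in or within 5 kb of 38 of the 54 genes and near none of the other 16, Plin5 among them.

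In 9 genes at least 50% of the body lay in member bins: Ddit4, Ch25h, Ocstamp, Olfml3, Ifnl2, Ifnl3, Krtap10-10, Tex19.2 and Calhm1. Ocstamp, a membrane protein needed for osteoclast fusion, was covered over 65.2% and 52.8% in KO M2, 100% in KO M0 and 63.0% in WT M0, and over 0% in all 6 excluded libraries. Olfml3, a secreted glycoprotein gene, was covered over 72.7% and 87.3% in KO M2, 81.0% in KO M0 and 95.4% in WT M0, and again over 0% in the other 6. Tex19.2, a testis gene, had 77.1% and 92.4% in KO M2, 100% in both M0 libraries and 0% in the other 6. Excluded libraries had regions close by, KO M1 replicate 2 at 0 kb from the Ocstamp members and 0.099 kb from those of Tex19.2. WT M2 replicate 2 had a region 0 kb from the Olfml3 members. The lambda interferon genes Ifnl2 and Ifnl3 were covered over 99.4% or more in both KO M2 libraries and over at most 9.78% in any excluded library. They are near-identical copies, so reads may have been assigned to either and their separate values are uncertain. In M0 they were covered over 100% in KO M0 and over 100% and 61.6% in WT M0. Every excluded library had a region 0.361 to 0.728 kb from the Ifnl2 member and 0.471 to 4.26 kb from the Ifnl3 member. Calhm1, an ion channel gene, differed from these, with 100% covered in the 4 libraries of the rule and 41.6% to 51.3% in the 6 excluded ones. At equal covered length Ifnl2, Ifnl3 and Calhm1 held members, and the other 6 held none.

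**Figure D4:**
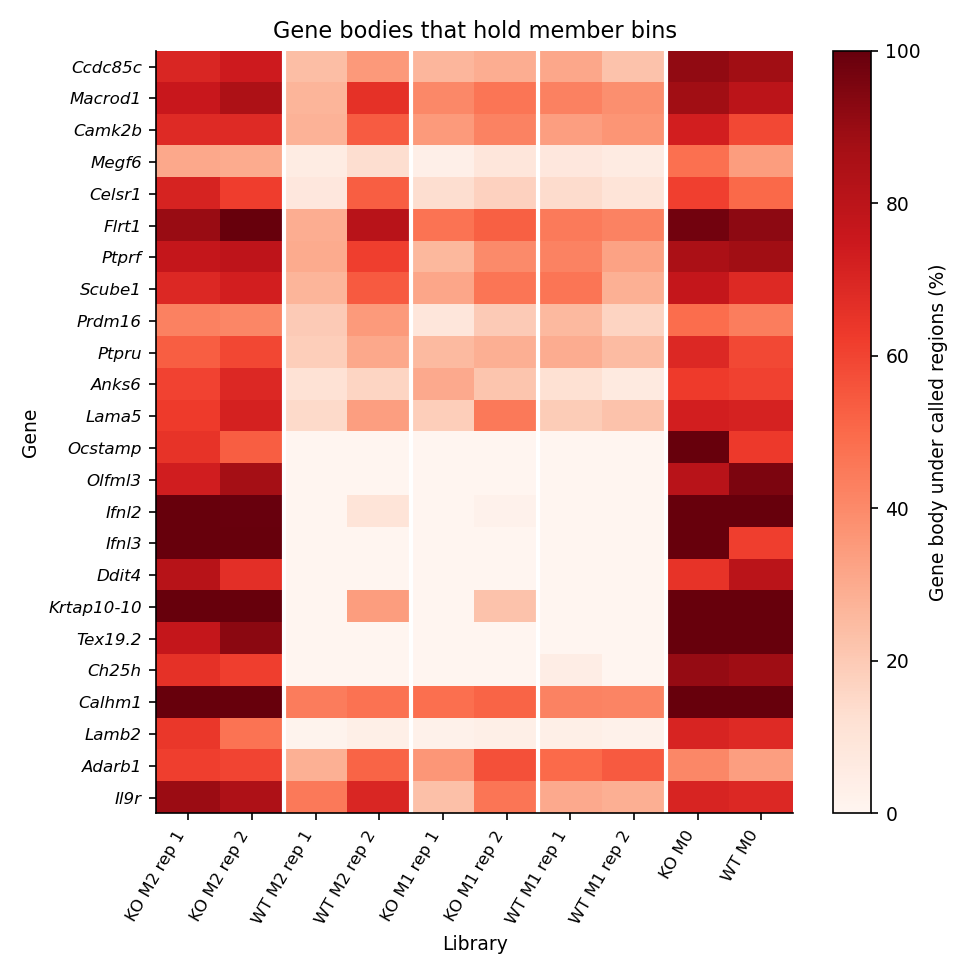
Share of the gene body under called regions (colour, %) in each library (columns) for the 12 genes with the most members, the 9 genes with at least 50% of the body in members and the genes at the longest runs (rows). Ocstamp, Olfml3, Ifnl3, Ddit4 and Tex19.2 are at 0% in WT M2 and M1. The long genes vary there, with 26.9% to 66.0% in Macrod1 and 3.47% to 13.3% in Megf6.

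The longest runs were 5 kb in Lamb2, a laminin chain gene (chr9:108480001-108485000), and 5 kb at chr19:53423001-53428000 with no gene within 5 kb. Runs of 4 kb lay at chr4:139704001-139708000, with no gene within 5 kb, in Adarb1, an RNA adenosine deaminase gene, and in Il9r, the receptor gene for interleukin 9. In Lamb2 the body was covered over 63.7% and 47.1% in KO M2, 1.24% and 3.72% in WT M2, 2.56% to 3.88% in M1, 70.3% in KO M0 and 68.3% in WT M0. The regions of all 6 excluded libraries ended within 0.022 kb of the run or reached its first bases, so the called edge of one stretch differed between library groups. The holding regions had 15.5 and 19.1 tags per kb in KO M2, 23.4 in KO M0 and 17.9 in WT M0. None of the 5 Lamb2 bins was a member at equal covered length.

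The named gene lists held members about as often as coding genes in general: 21 of 400 matched genes (5.25%), beside 4.53% of all coding genes. Of the IL-4 response genes 3 of 40 had a member, of the LPS and interferon genes 0 of 43, and of the immediate early genes 0 of 28. Stress response and serine synthesis genes, the targets of the PERK and Atf4 axis among them, had 2 of 39, and sterol and oxysterol genes 2 of 24. Granulocyte, erythroid and dendritic markers had 3 of 23, macrophage identity and lymphoid genes 2 of 24 each, developmental transcription factors 3 of 59, Hox genes 1 of 39, genes of the H3K27 methylation machinery 1 of 20, housekeeping genes 2 of 18 and stromal and epithelial markers 0 of 20. No list had more than 3 such genes, and lists of this size give shares of low precision.

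Among the stress genes was Ddit4 (chr10:59949675-59951770), which encodes a stress-induced inhibitor of mTORC1 signalling and is a known Atf4 target. Its body was covered over 81.3% and 66.6% in KO M2, 65.2% in KO M0 and 80.2% in WT M0, and over 0% in both WT M2 and all 4 M1 libraries. Its 3 members (chr10:59950001-59953000) span the gene start and the CG-rich window shown above. WT M2 replicate 2 had a region 0.154 kb beyond them, and KO M1 replicate 2 touched their edge, while in the other 4 excluded libraries the nearest region was 5.75 to 6.19 kb away. The holding regions were shallow, at 13.9 and 14.7 tags per kb in KO M2, 18.1 in KO M0 and 19.3 in WT M0, and none of the 3 bins was a member at equal covered length.

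Atf3, a stress-induced transcription factor gene, had 1 member upstream of its start (chr1:191184001-191185000) and 0% of its body covered in every library. WT M1 replicate 1 reached into this bin without covering 500 bp, and in the other 5 excluded libraries the nearest region was 18.9 to 41.9 kb away. This bin too was no member at equal covered length.

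Ch25h, the enzyme that makes an oxysterol from cholesterol, was covered over 65.8% and 61.6% in KO M2, 90.3% in KO M0 and 88.7% in WT M0, against 0% in both WT M2 libraries and 0% to 4.47% in M1. WT M2 replicate 2, KO M1 replicate 2 and WT M1 replicate 1 had a region 0.087 to 0.223 kb upstream of the member, and in the other 3 the nearest region was 189.1 kb or more away. It was no member at equal covered length. Cyp46a1, a cholesterol hydroxylase gene of the brain, had 2 members in a body that every library covered by at least 59.0%.

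**Figure D5:**
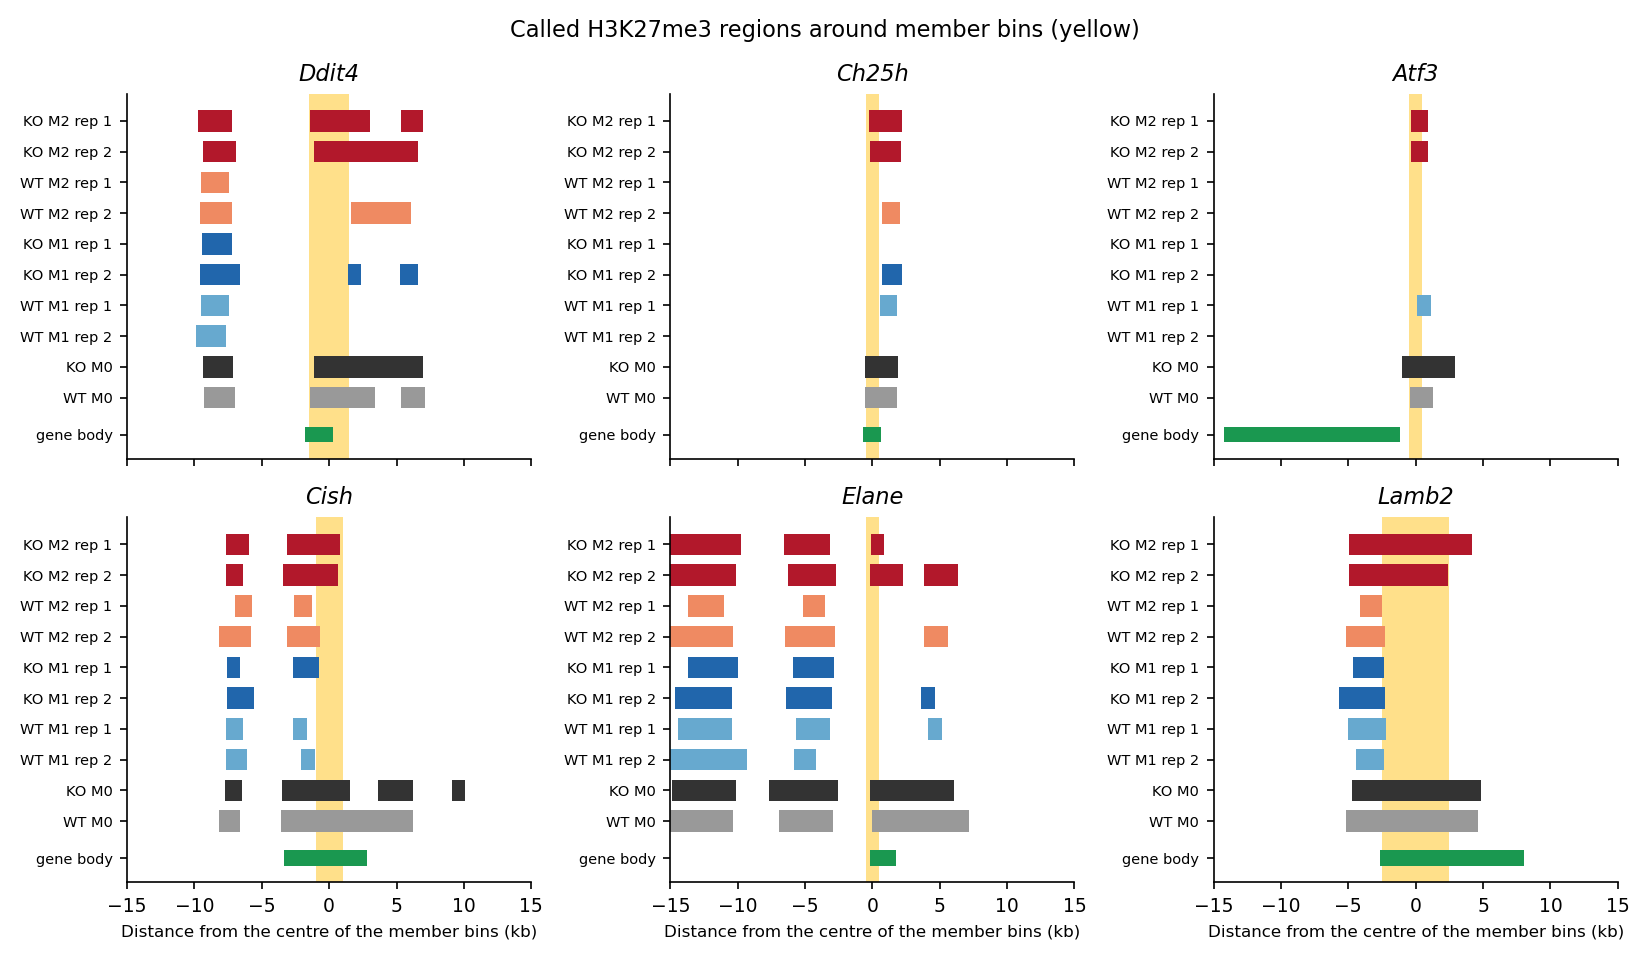
Called regions (bars, 1 row per library) within 15 kb of the members at Ddit4, Ch25h, Atf3, Cish, Elane and Lamb2 (x axis, kb from the centre of the members; yellow, member bins; green, gene body). In each panel the KO M2 and M0 bars cross the yellow band, and the WT M2 and M1 bars stop short of it or cover less than 500 bp of a bin.

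In the locus maps several excluded libraries called regions close to the members. At Ddit4, WT M2 replicate 2 and KO M1 replicate 2 called regions within the span of the KO M0 region. WT M2 replicate 2, KO M1 replicate 2 and WT M1 replicate 1 did so at Ch25h, overlapping the KO M2 regions, and at Elane within the span of the WT M0 region. At Atf3 the one excluded library with a region in the window was WT M1 replicate 1. At Cish, 5 of the 6 excluded libraries called a region overlapping the stretch that KO M2 and M0 marked, and at Lamb2 all 6 did, and these regions ended short of the members or covered less than 500 bp of a member bin.

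Of the IL-4 response genes, Cish, an inhibitor of cytokine receptor signalling that IL-4 is known to induce, had 2 members. Its body was covered over 64.2% and 64.8% in KO M2, 21.7% and 40.5% in WT M2, 31.9% and 0% in KO M1, 16.3% in each WT M1 library, 79.7% in KO M0 and 100% in WT M0. Both bins were also members at equal covered length. Cdh1, the E-cadherin gene, and Itgax, the CD11c integrin gene, had 1 each, and their bodies did not follow the pattern: Cdh1 was covered over 47.4% and 55.1% in KO M2, 21.1% and 55.1% in WT M2, 45.8% in KO M0 and 37.3% in WT M0.

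Of the granulocyte genes, Elane, neutrophil elastase, was covered over 52.5% and 99.1% in KO M2, 100% in KO M0 and 93.3% in WT M0, and over 0% in the 6 excluded libraries, and it held no member at equal covered length. Its member bin also lay within 5 kb of the neighbouring protease gene Prtn3, whose own body was covered by at least 46.4% in every library. Ctsg, cathepsin G, had 37.2% and 89.6% in KO M2, 46.5% in KO M0, 37.2% in WT M0 and 0% in the other 6, with the nearest excluded region 35.2 kb or more away.

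Of the macrophage identity genes, Cx3cr1, the fractalkine receptor gene, was covered over 5.10% and 11.5% in KO M2, 5.10% in KO M0, 7.89% in WT M0 and 0% in the other 6 libraries. Axl, a receptor kinase gene, was covered over 10.3% and 18.6% in KO M2, 1.22% and 11.3% in WT M2, 0% to 3.06% in M1, 21.6% in KO M0 and 21.5% in WT M0. Of the Polycomb genes, Cbx6, a chromobox subunit of PRC1, had 1 member, with 12.4% and 14.1% covered in KO M2, 0% in WT M2, 0% to 0.0958% in M1, 10.3% in KO M0 and 13.2% in WT M0. These members covered a small part of each gene.

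The lymphoid transcription factor genes Lef1 and Pax5, the developmental factors Foxc1, Pax7 and Pax8, and Hoxb3 had 1 or 2 members each. Foxc1 was covered over 100% of its body in every library and its member lay outside it. In Lef1 the member held an annotated gene start inside the gene, and the whole body was covered over 33.8% and 31.8% in KO M2, 20.5% and 31.1% in WT M2, 14.5% to 29.4% in M1, 26.0% in KO M0 and 20.6% in WT M0. In the housekeeping list, Rab7, a GTPase of late endosomes, was covered over 0% in every library, its member lying beyond the gene, and Ywhaz, an adaptor of phosphorylated proteins, over 2.43% to 15.5%.

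Members held 6 of 919 annotated miRNA hairpins. The share of hairpins in other called bins was not computed, so this count shows no trait particular to members. Mir341 and Mir1188 shared 1 stretch of chromosome 12 (109611500 to 109611941) in the imprinted Dlk1-Dio3 domain, and the others were Mir7226, Mir6396, Mir7218 and Mir8090.

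The authors' deposited table of regions higher in KO M2 than in WT M2 lists 1049 regions, chosen by a p-value under 0.01, and 89 of them (8.48%) touched a member. In the authors' deposited tables of regions higher in WT M2 (185), in KO M1 (93) and in WT M1 (49), 0 touched a member. No member was called in WT M2 or M1 by the rule, so this was in large part set in advance. Of the same regions in the authors' deposited tables, 0, 1 and 0 touched any bin called in both M0 and no M1 library. Read from the bins, the authors' deposited table touched 93 members (5.10%), against 0.661% of the other bins called in both M0 and no M1 library and 0.707% of all bins called in both M0 libraries. That contrast is also the one the rule used.

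The authors' deposited table gave log2 fold changes (KO over WT) of 1.32 to 2.69 for the 89 regions, with a median of 1.71, beside 1.49 over its 1049 regions. The largest of them in the authors' deposited table was just upstream of Ddit4 (chr10:59952170-59952570), with a log2 fold of 2.69, a p-value of 0.00632 and an adjusted value (FDR) of 0.194. Its log2 concentrations, 3.15 in KO and 0.594 in WT, were the lowest of the 89 regions in each genotype, so this fold rests on low signal. The region upstream of Atf3 (chr1:191184711-191185111) had a log2 fold of 1.79, a p-value of 0.000601 and an FDR of 0.141 in the authors' deposited table. For Cx3cr1 (chr9:120051488-120051888) the authors' deposited table gave a log2 fold of 1.82, a p-value of 0.00136 and an FDR of 0.147. None of these 3 passed an FDR of 0.05, and no region of the authors' deposited table touched the members at Ch25h, Cish or Elane.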

How the data were processed

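H3K27me3 ChIP-seq regions of 10 libraries were analysed. The submitters' processing notes name mm10 and the tools DiffBind 2.0.2, HOMER 4.8, deepTools 3.5.1, SAMtools 1.10 and Bowtie2 2.4.2. Per the file headers, regions were called in each library by itself from 1000 bp windows at an FDR of 0.001, stitched over at most 2500 bp, and no input control is named. The deposited normalized tag count is a signal per region at 10 megatags, the deposited region score is the caller's own score, and the deposited clonal fold ratio was read but not used; all 3 are the authors' values. The authors' deposited comparison tables hold log2 concentrations and fold changes with p-values.

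From these, regions of a library were merged and summed over 1 kb bins of chromosomes 1 to 19 (500 bp minimum), with Python 3.11.15, numpy 2.4.6, pandas 2.3.3, scipy 1.17.1 and matplotlib 3.10.9. The steps were tested on simulated regions, recovering 300 of 300 covered lengths and 200 of 200 planted bins. Genes came from RefSeq (GRCm38.p6), without strand or exons, with 400 of 409 list genes matched by symbol or synonym; the promoter table used here has no entry for chromosome 18. The members and the lists were chosen with earlier results of these data known. Named genes were list genes with a member within 5 kb, the 12 coding genes with most members, genes with at least 50% of the body in members and genes at the 5 longest runs. Genes named otherwise were chosen after their values were seen. No test was run, since all 10 libraries entered the rule. Wilson intervals (95%) cover counting error only. Alternatives were other overlap minimums, bin sizes and starts, stronger regions, equal covered length, other gene flanks and leaving out each library; leaving out both WT replicate 1 libraries was added after seeing the data.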

Additional observations from a re-analysis of the deposited data

How the results depend on the processing

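The count of members stayed within 1.5 times of 1824 in 14 of 20 alternatives, and was above the 3 counts with another group in place of KO M2 in all 20. No paired analysis was possible because the counts come from a rule over the calls of all libraries and not from a test. It moved to 3639 with 500 bp bins and 906 with 2 kb bins (1819.5 and 1812 kb), 972 with 0 bp in the excluded libraries, and 479 with the upper 50% of regions by score. The counts with WT M2, KO M1 and WT M1 in place of KO M2 (4, 33 and 9) became 9, 61 and 27 with 500 bp bins, 2, 10 and 3 with 0 bp in the excluded libraries, 44, 69 and 82 with the upper 50% of regions, and 63, 112 and 84 at equal covered length. For WT M2 the count was 7 at 250 bp, 2 at 750 bp and 8 with bins from position 500. For KO M1 it was 20 at 750 bp, 15 over the whole 1000 bp and 15 with 2 kb bins.

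Leaving out each library gave 1884 to 3415 members, with 3238 without KO M2 replicate 1 and 3415 without WT M2 replicate 2. WT M2 in place gave 4 to 217: 217 and 16 without WT M2 replicates 1 and 2, 18 without either KO M2 library, 8 without KO M1 replicate 2, 10 without WT M1 replicate 1, and 9 and 21 without KO and WT M0. KO M1 gave 34 to 241: 241 and 103 without its own replicates 1 and 2, 82 and 74 without those of KO M2, 64 without WT M1 replicate 2, and 64 and 101 without KO and WT M0. WT M1 gave 10 to 113: 90 and 113 without its own replicates, 41 and 35 without those of KO M2, 19 and 26 without those of KO M1, 15 without WT M2 replicate 2, and 24 and 40 without KO and WT M0. Without both WT replicate 1 libraries, an alternative chosen after seeing the data, WT M2 gave 249 and WT M1 91.

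At equal covered length, bins chosen with KO M2 replicate 1 were called at 61.0% in KO M2 replicate 2 and 31.9% in WT M2 replicate 2, and those chosen with KO M2 replicate 2 at 43.7% in KO M2 replicate 1 and 9.63% in WT M2 replicate 1. For bins chosen with WT M2 replicate 2, the shares were 49.3% in KO M2 replicate 1 and 15.2% in WT M2 replicate 1. At 750 bp the share of 2.35% became 1.87%, and for the few bins chosen with WT M2 replicate 1 it was 52% in KO M2 replicate 2 and 20% in WT M2 replicate 2. The cause was not tested. Counts of genes stayed within 1.5 times with 0 and 10 kb flanks (722 and 1200 coding genes, 16 and 26 list genes).

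Which bins are members depends on the regions kept. Of the 43 named genes, 38 kept a member at 250 bp, 28 at 750 bp, 22 at equal covered length and 8 with the upper 50% of regions. With 2 libraries a group, 1 in each M0 genotype and no input control, a missing call does not show that the mark was absent at that depth.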

Other observations

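Some of the 54 genes whose bodies followed the pattern of the rule (38 with a member in or within 5 kb, 16 without) belong to none of the lists and were picked here after their values were seen. Slc2a5, a fructose transporter gene, was covered over 54.6% and 68.2% in KO M2, 0% and 48.0% in WT M2, 16.3% to 38.0% in M1, 90.4% in KO M0 and 77.1% in WT M0. Slc6a9, a glycine transporter gene, was covered over 73.4% and 50.8% in KO M2, 13.1% and 43.9% in WT M2, 10.3% to 25.4% in M1, 53.9% in KO M0 and 61.9% in WT M0. Nkd1, an inhibitor of Wnt signalling, was covered over 81.2% and 65.6% in KO M2, 19.6% and 47.1% in WT M2, 14.7% to 42.3% in M1, 69.7% in KO M0 and 62.5% in WT M0. In all 3, WT M2 replicate 2 was the excluded library with the highest coverage.

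Hspa1b, an inducible heat shock gene, had 63.0% and 63.9% in KO M2, 0% and 35.6% in WT M2, 35.6% to 44.6% in M1, 94.3% in KO M0 and 97.2% in WT M0. No member lay within 5 kb of it, and it has a near-identical neighbour, Hspa1a, so its values are uncertain. Krt17, a keratin gene, had 71.3% and 73.2% in KO M2, 0% in both WT M2 libraries, 0% to 27.4% in M1, 100% in KO M0 and 79.6% in WT M0.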
